A study of Mus musculus with 24 samples.

Results

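The genes described are 8 that mark the extraembryonic endoderm of the early mouse embryo: Gata4, Gata6, Pdgfra, Dab2, Amn, Cubn, Afp and Ttr. All probes annotated to them were taken. Those were kept that both arrays of some group, out of 12 groups, detected with a detection p-value below 0.01. Of the 8 genes, 7 had a probe, 9 probes in all, and Cubn, to which the annotation used assigned none, was not analysed here. Only 4 of the 9 probes, for 3 genes, were kept: 1 for Gata6, 2 for Dab2 and 1 for Amn. They stand among 12324 kept named probes for 8932 genes.

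The extraembryonic endoderm is the layer that forms next to the epiblast in the blastocyst and becomes the yolk sac's visceral and parietal endoderm. FGF signalling and the zinc-finger transcription factors Gata6 and then Gata4 set this fate, and the primitive endoderm carries the PDGF receptor Pdgfra on its surface. Visceral endoderm takes up maternal nutrients through endocytic receptors, among them cubam, made of Amn and Cubn, with Dab2 as the adaptor that links such receptors to clathrin, and it secretes serum proteins such as Afp and Ttr. F9 embryonal carcinoma cells are a textbook model of this step, since retinoic acid turns them into endoderm. No retinoic acid treatment is named in the labels of these samples.

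Expression was measured on Illumina MouseRef-8 v2 arrays, with 2 replicate arrays in each group. ESCm were male ES cells and ESCf female OG2 ES cells. EpiSCf were female OG2 and EpiSCm male GOF18 epiblast stem cells, which are lines from the postimplantation epiblast. F9 EC and P19 EC were male embryonal carcinoma lines. In 6 further groups Sox2, a pluripotency transcription factor, was labelled as overexpressed: F9-Sox2, P19-Sox2, Epi-Sox2f from female OG2 EpiSC, EpiSox2mL2 from male GOF18 EpiSC in EpiSC medium, and EpiSox2mE1 and EpiSox2mE2 from male GOF18 EpiSC in ESC medium, called ESC-like 1 and 2. The transgene was wild-type Sox2, and its promoter is not given in the sources used here. The series text calls the replicates biological without saying that they were separate cultures, so p-values measure the spread between these arrays.

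All groups expressed Pou5f1, a core pluripotency factor, on both arrays, and between 11 and 15 of 15 pluripotency markers were detected on both arrays of each group. Against its parent line, Sox2 itself rose in 5 of 6 transgenic groups (log2 0.82 to 1.30). It was not called in the libraries labelled Epi-Sox2f (log2 -0.18 against EpiSCf, adjusted p = 0.32). The 8 arrays of the GOF18 family had a lower background signal (84.1 to 93.1) than the other 16 arrays (104 to 124), and a probe was detected there from a signal of 94.9 to 105, against 139 to 186. On the normalized log2 scale the limit of detection lay between 5.20 and 5.68 on the 24 arrays. The precision of every value is limited by 2 arrays per group.

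The stretches of 250 bases before the annotated start sites of Dab2 and Amn are shown because the measurable Dab2 probes, annotated to different transcripts, ranked the lines differently, and because GATA factors such as Gata6 bind the motif marked. The sequences are those of RefSeq on GRCm38.p6, plus strand, and capitals mark a GATA motif, that is AGATAA or AGATAG, and likewise TGATAA or TGATAG, on both strands.
Dab2, start upstream, chr15:6299539-6299788: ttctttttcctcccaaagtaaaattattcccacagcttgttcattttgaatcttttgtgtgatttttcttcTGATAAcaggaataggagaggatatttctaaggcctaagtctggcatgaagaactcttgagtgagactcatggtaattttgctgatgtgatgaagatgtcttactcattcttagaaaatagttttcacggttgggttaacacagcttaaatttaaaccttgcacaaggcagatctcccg
Dab2, start downstream, chr15:6386498-6386747: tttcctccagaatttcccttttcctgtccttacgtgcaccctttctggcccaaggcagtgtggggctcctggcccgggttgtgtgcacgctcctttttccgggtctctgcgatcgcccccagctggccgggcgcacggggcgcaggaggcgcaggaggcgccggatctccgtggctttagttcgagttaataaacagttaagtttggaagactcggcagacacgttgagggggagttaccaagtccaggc
Amn, chr12:111270846-111271095: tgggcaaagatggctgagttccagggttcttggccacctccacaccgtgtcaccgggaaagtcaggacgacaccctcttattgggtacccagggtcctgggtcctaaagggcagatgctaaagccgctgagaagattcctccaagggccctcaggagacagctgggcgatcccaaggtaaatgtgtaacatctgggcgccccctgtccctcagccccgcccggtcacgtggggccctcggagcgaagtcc
The upstream Dab2 start had 1 GATA motif, 179 bases before the start, in a window with 36.8% G and C. The downstream Dab2 start, with 60% G and C, and the Amn start, with 61.2%, held none of these letters. The same motifs occurred in 26.5% of the 32851 promoter windows of this length. Amn held 1 GC box (GGGCGG, here on the other strand) 35 bases before its start, as did 32.7% of windows. Which start site each Dab2 probe reads was not examined.

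The secreted products and Gata4 were not detected in any line. The Gata4 probe passed on 0 of 24 arrays, with a lowest detection p of 0.018 and log2 levels of 4.44 to 5.35. Afp, the fetal serum protein, passed on 0 of 24 (log2 4.40 to 4.89), as did Ttr, the thyroxine carrier (4.34 to 4.78). All 3 were therefore bounded only by the limit of detection, and no group can be ranked for them. Pdgfra was detected on 1 array, ESCm replicate 2 at log2 5.45 (detection p 0.009), while the other ESCm array read 5.16. It was the nearest to the threshold of the probes left out, whereas each kept probe passed on both arrays of at least 8 groups. The third Dab2 probe, ILMN_3019670, passed on 0 of 24 arrays.

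**Figure D1:**
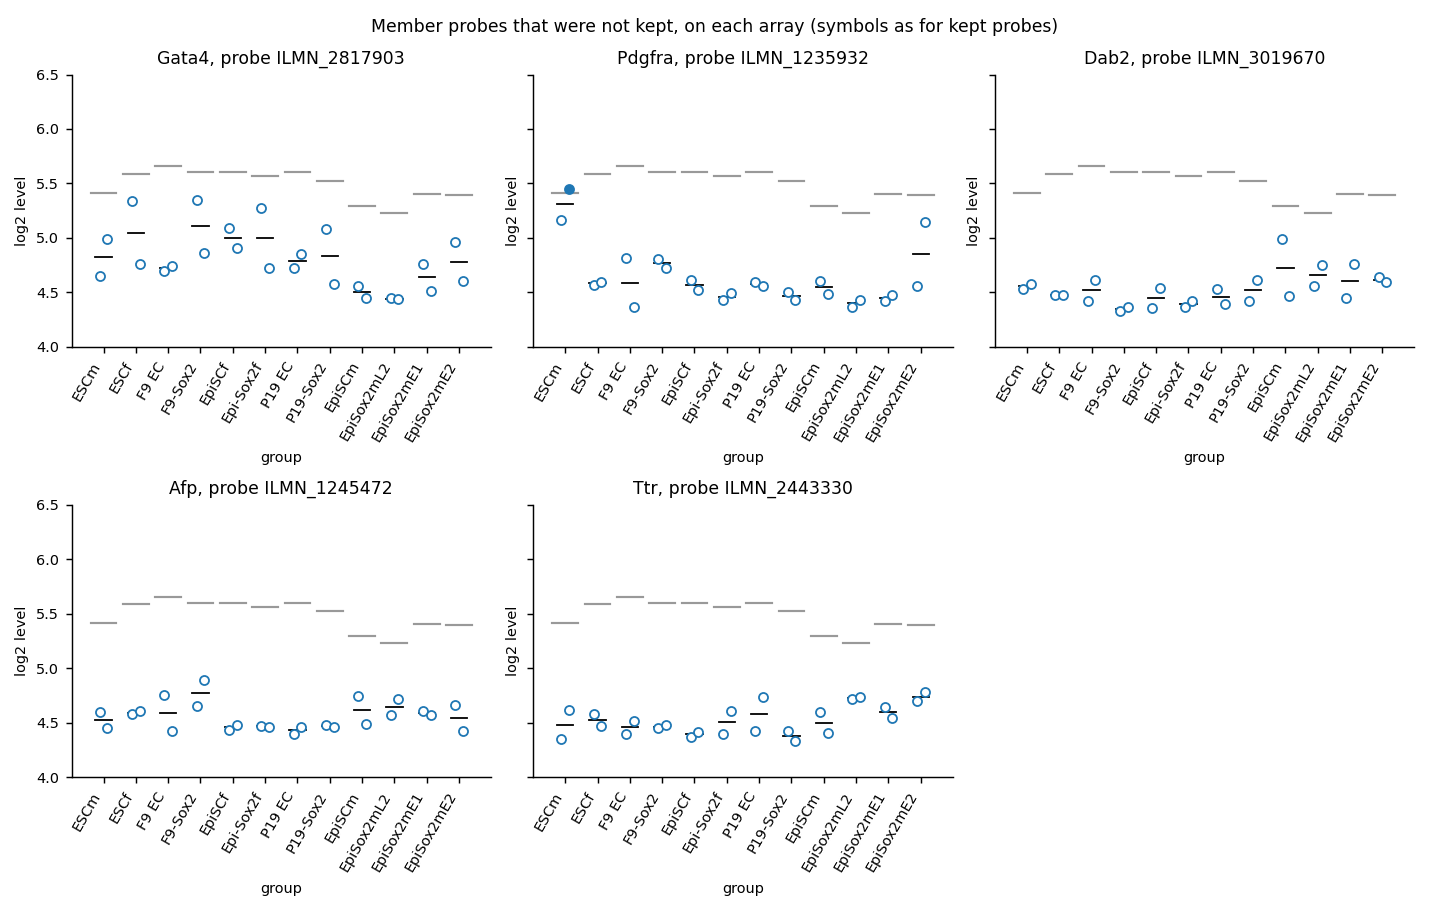
Log2 level of the 5 member probes that were not kept, by group. Each point is 1 array (filled where the detection p was under 0.01), the black bar is the mean of 2 arrays and the grey bar the mean limit of detection. All points but 1, a Pdgfra array of ESCm at 5.45, are open.

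Gata6 was highest in the P19 lines and was not detected in F9 EC or in the female EpiSC lines. Its log2 levels were 7.46 and 7.17 in P19 EC and 7.12 and 7.15 in P19-Sox2. The male GOF18 family lay lower, at 6.65 and 6.29 in EpiSCm, 6.36 and 6.18 in EpiSox2mL2, 6.02 and 6.08 in EpiSox2mE1, and 6.10 and 6.47 in EpiSox2mE2. ES cells were at 6.34 and 6.13 (ESCm) and 5.70 and 6.27 (ESCf). From EpiSCm down to ESCm the arrays of neighbouring groups overlapped, as did those of EpiSox2mE1 and ESCf. The order of the GOF18 family against ES cells depended on the scaling. With arrays scaled to a common median, EpiSCm (mean 6.23) stood below ESCm (6.42). EpiSox2mL2 (6.02), EpiSox2mE1 (5.76) and EpiSox2mE2 (5.81) then stood below ESCf (6.06). The other 4 groups were near or under the limit of detection. F9 EC read 4.81 and 5.0, EpiSCf 4.77 and 4.40, and Epi-Sox2f 4.42 and 4.45, with no array detected. F9-Sox2 read 5.66 and 5.54, with 1 array detected.

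Dab2 was measured by 2 probes that did not rank the lines alike. On ILMN_1243329, annotated to transcript NM_023118, P19 EC was highest (7.72 and 7.85), followed by EpiSox2mL2 (7.56 and 7.54) and P19-Sox2 (7.69 and 7.34), and the last pair overlapped. Levels were 6.70 and 6.80 in Epi-Sox2f, 6.46 and 6.92 in EpiSCm, 6.51 and 6.58 in ESCm, and 6.56 and 6.46 in EpiSCf, where neighbours overlapped. EpiSox2mE1 (6.01 and 6.16), ESCf (5.99 and 5.88) and EpiSox2mE2 (4.92 and 5.82, 1 array detected) were lower. With arrays scaled to a common median, EpiSox2mL2 (mean 7.19) stood below P19-Sox2 (7.62). EpiSCm (6.42) then stood below ESCm (6.74) and EpiSCf (6.80), and EpiSox2mE1 (5.78) below ESCf (6.02). Neither array of F9 EC (4.67 and 4.60) or F9-Sox2 (4.71 and 4.91) detected this probe, so both F9 lines gave only a bound.

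On ILMN_3091641, annotated to NM_001008702, EpiSox2mL2 was highest (8.12 and 8.06), ahead of EpiSCm (7.17 and 7.0), EpiSox2mE2 (6.62 and 6.97) and EpiSox2mE1 (7.02 and 6.53). P19 EC came after these 4, at 6.24 and 6.57, and P19-Sox2 read 5.88 and 6.0. These 4 are the GOF18 array family, and their order against P19 EC depended on the scaling. With arrays scaled to a common median, P19 EC (mean 6.58) stood above EpiSox2mE1 (6.42) and EpiSox2mE2 (6.25) and below EpiSCm (6.80). ESCm (5.93 and 5.76), EpiSCf (5.72 and 5.78) and Epi-Sox2f (5.37 and 5.89) overlapped in turn. ESCf (5.09 and 5.54), F9 EC (4.95 and 4.69) and F9-Sox2 (4.73 and 4.50) were not detected. Over the 12 group means the kept Dab2 probes correlated at r = 0.59, given as a description, since the groups share parental lines and an array family. Both gave the F9 lines the lowest means, but on ILMN_3091641 ESCf was undetected too, so its order against the F9 lines is not resolved. On the quantile-normalized values used here, EpiSox2mE2 differed most in its place, at 10 of 12 on ILMN_1243329 (1 of 2 arrays detected) and 3 of 12 on ILMN_3091641. Its place on ILMN_3091641 was lower with median scaling, below P19 EC.

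Amn, the membrane subunit of cubam, was highest in ES cells and not detected in the female EpiSC lines. ESCm read 7.15 and 7.22 and ESCf 7.14 and 7.18, and EpiSox2mL2 (7.19 and 6.82) and EpiSox2mE2 (7.03 and 6.84) overlapped them or each other. P19 EC (6.36 and 6.83), EpiSox2mE1 (6.48 and 6.39), EpiSCm (6.01 and 6.78) and F9-Sox2 (6.27 and 6.21) followed, also with neighbours overlapping. The EpiSCm arrays lay further apart on this probe than those of any other group. With arrays scaled to a common median, P19 EC (mean 6.78) stood above EpiSox2mL2 (6.68) and EpiSox2mE2 (6.35). P19-Sox2 (5.60 and 5.98) and F9 EC (5.70 and 5.56, 1 array detected) came next and overlapped. EpiSCf (4.60 and 4.81) and Epi-Sox2f (4.92 and 4.79) did not detect it.

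**Figure D2:**
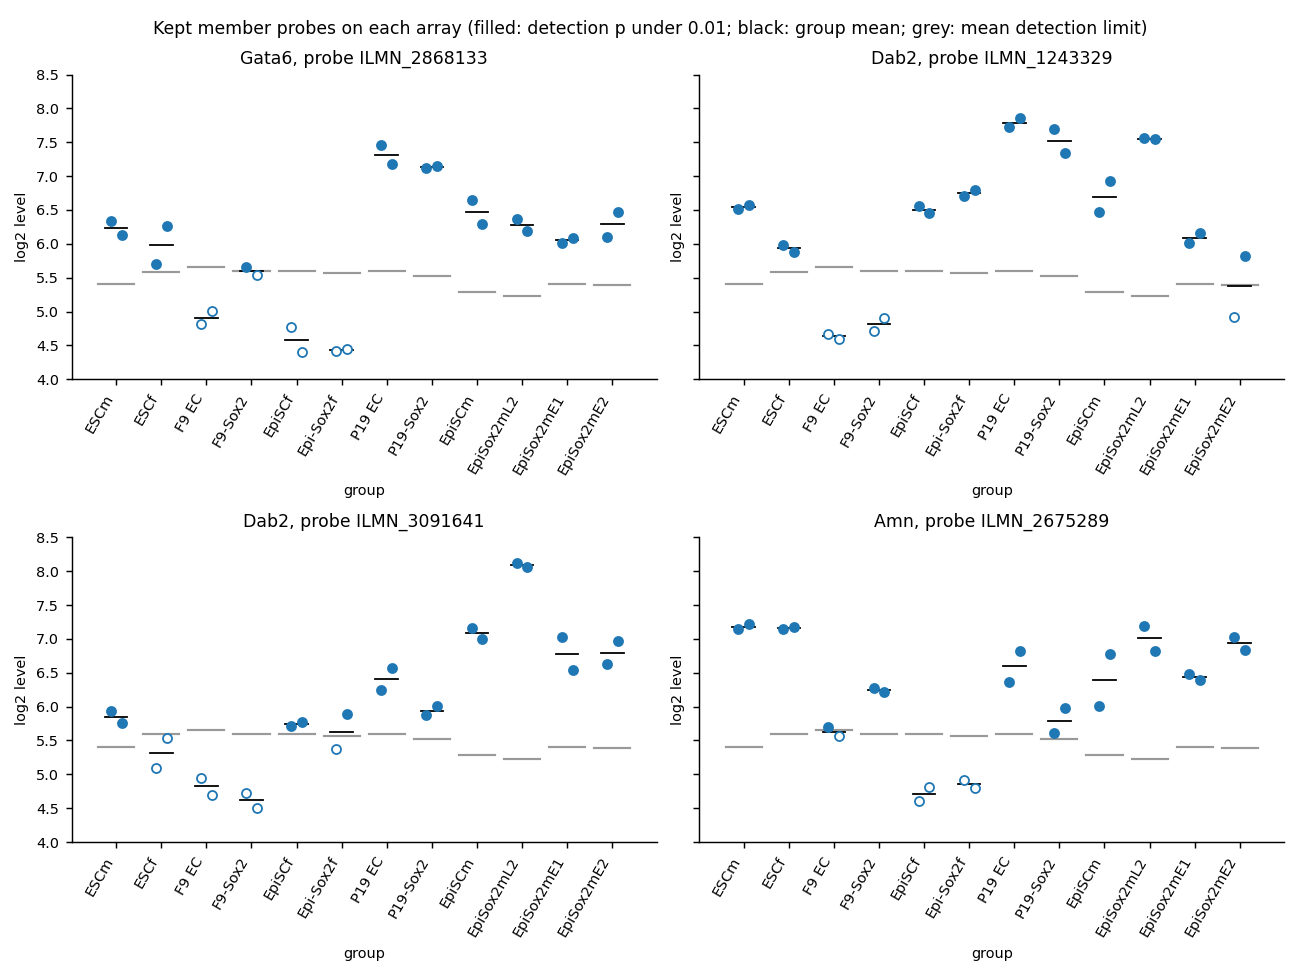
Log2 level of the 4 kept member probes by group. Points are single arrays (filled where the detection p was under 0.01), black bars the mean of 2 arrays and grey bars the mean limit of detection. The F9 lines lie at the bottom for both Dab2 probes, with ESCf also undetected on ILMN_3091641, and EpiSCf is undetected for Gata6 and Amn.

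The genes whose 12 group means ran most alike to each probe are given by Pearson's r alone. For Gata6 they were Ppp3ca (r = 0.92), Mars2 (0.92) and Pfkfb2 (0.90). For Dab2 ILMN_1243329 they were Ndufa7 (0.94), 4933427D14Rik (0.91) and Zc3h6 (0.89), and for Dab2 ILMN_3091641 Rffl (0.96), Tmem260 (0.95) and Abhd4 (0.94). For Amn they were Lrpap1 (0.92), the chaperone of LDL-receptor-family proteins, Smurf1 (0.89) and Tek (0.89). Of these, Lrpap1 alone was also on a list of endocytosis partners.

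Embryonal carcinoma lines were compared with ESCm, the ES cells of the same sex. All 4 kept probes were lower in F9 EC than in ESCm, with Amn at log2 -1.55 (SE 0.21, adjusted p = 7.1e-06). Of the 2 F9 EC arrays 1 detected Amn and their mean lay at the limit of detection, so no fold is given. Gata6 was at least 1.49-fold lower (log2 -1.33, SE 0.19, adjusted p = 1.5e-05), Dab2 ILMN_1243329 at least 1.85-fold (log2 -1.91, SE 0.21, adjusted p = 7.7e-07) and Dab2 ILMN_3091641 at least 1.14-fold (log2 -1.02, SE 0.20, adjusted p = 4.5e-04). In this comparison 46.7% of the 12324 probes were called, 23.2% higher and 23.5% lower in F9 EC. A probe kept only through the groups that detect it has to differ from groups that do not, so the count of 4 is a description. The log2 sizes of the undetected probes depend on the background offset: with the authors' log2 values they were -2.25 for Gata6, -3.40 and -1.93 for Dab2, and with an offset of 50 they were -0.79, -1.13 and -0.57, all still called.

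In P19 EC the regulator and the adaptor were higher than in ESCm. Against ESCm, Gata6 was 2.12-fold higher (log2 1.08, SE 0.19, adjusted p = 8.7e-05), Dab2 ILMN_1243329 2.37-fold higher (log2 1.24, adjusted p = 6.5e-05) and Dab2 ILMN_3091641 1.48-fold higher (log2 0.56, adjusted p = 0.026), while Amn was 1.5-fold lower (log2 -0.59, adjusted p = 0.023). All 4 were called, beside 54.6% of all probes (27.9% higher, 26.7% lower). The last pair of calls was the less secure. Amn lost its call without either ESCm array or without P19 EC replicate 1 (log2 -0.35, adjusted p = 0.26), and Dab2 ILMN_3091641 without ESCm replicate 2 or P19 EC replicate 2. Neither passed with the authors' log2 values (adjusted p = 0.062 and 0.072).

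Directly against F9 EC, all 4 probes were higher in P19 EC, where 53.1% of probes were called and 27.2% were higher and 25.9% lower. Gata6 was at least 3.16-fold higher (log2 2.41, adjusted p = 3.8e-09), Dab2 at least 4.38-fold on ILMN_1243329 (log2 3.15, adjusted p = 4.0e-10) and at least 1.68-fold on ILMN_3091641 (log2 1.58, adjusted p = 2.6e-06), and Amn by log2 0.97 (adjusted p = 6.9e-04), with 1 of 2 F9 EC arrays detected. The 3 comparisons among ESCm, F9 EC and P19 EC share arrays and are not independent.

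**Figure D3:**
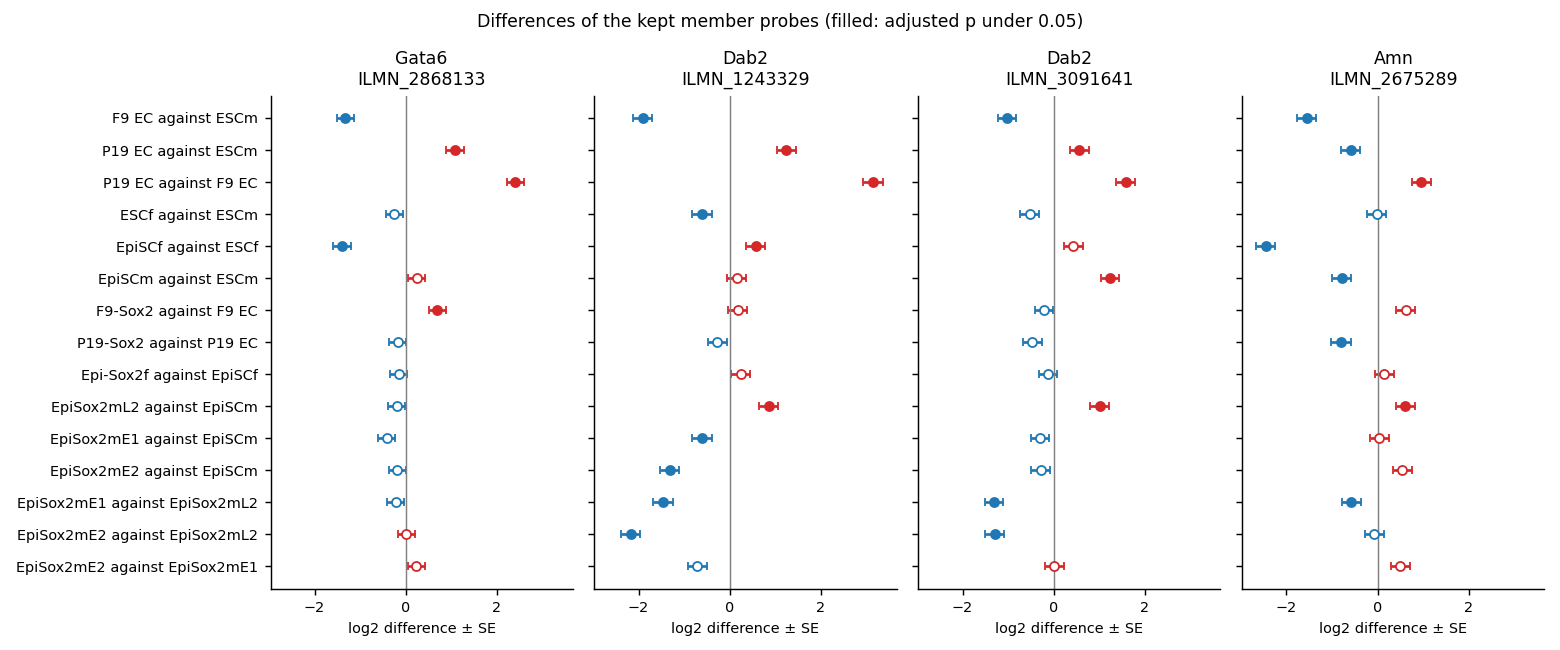
Log2 difference (first group minus second) with its standard error for the 4 kept member probes in 15 comparisons of 2 arrays against 2. Filled points passed adjusted p under 0.05. Red is higher, blue lower, and the point farthest from zero is Dab2 ILMN_1243329 in P19 EC against F9 EC at 3.15.

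Female and male EpiSCs differed in what they lost relative to ES cells. In EpiSCf against ESCf, Amn was at least 2.95-fold lower (log2 -2.46, SE 0.21, adjusted p = 8.6e-09) and Gata6 at least 1.30-fold lower (log2 -1.40, SE 0.19, adjusted p = 4.2e-06). Dab2 was higher on ILMN_1243329 (log2 0.57, 1.49-fold, adjusted p = 0.027) and not called on ILMN_3091641 (0.43, adjusted p = 0.079). This made 3 of 4 probes called, beside 57.8% of all probes (30.9% higher, 26.9% lower). The Dab2 call was lost when any 1 of the 4 arrays was left out (adjusted p over 0.05 in each case), and with the authors' log2 values (adjusted p = 0.081).

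In EpiSCm against ESCm, Gata6 was not called (log2 0.24, SE 0.19, adjusted p = 0.27), nor was Dab2 ILMN_1243329 (0.15, adjusted p = 0.54). Dab2 ILMN_3091641 was 2.36-fold higher (log2 1.24, adjusted p = 3.0e-05) and Amn 1.73-fold lower (log2 -0.79, adjusted p = 0.0027). That was 2 of 4 probes, beside 68.9% of all probes (39.4% higher, 29.5% lower). The EpiSCm arrays belong to the GOF18 array family and the ESCm arrays do not. Cell state and array family cannot be told apart in this comparison. Amn lost its call without EpiSCm replicate 1 (log2 -0.40, adjusted p = 0.098). With arrays scaled to a common median, the Dab2 ILMN_3091641 value was log2 0.79 and that of Amn -1.27, both still called, and the median over all probes shifted from 0.14 to -0.20. On that scale the means of Gata6 (6.23 against 6.42) and Dab2 ILMN_1243329 (6.42 against 6.74) were lower in EpiSCm than in ESCm.

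The difference between these effects (male minus female) was itself tested, with 50.3% of probes called (26.6% above 0, 23.7% below). It was 1.64 for Gata6 (SE 0.27, adjusted p = 6.3e-05), 1.67 for Amn (SE 0.30, adjusted p = 1.3e-04) and 0.81 for Dab2 ILMN_3091641 (SE 0.29, adjusted p = 0.027), and was not called for Dab2 ILMN_1243329 (-0.42, adjusted p = 0.25). Since EpiSCf detected neither Gata6 nor Amn, the sizes for these depend on the background offset: they were 3.19 and 2.98 with the authors' log2 values and 0.94 and 0.99 with an offset of 50, called in each case. The Dab2 ILMN_3091641 value became 0.21 (adjusted p = 0.60) with median scaling and 0.88 (adjusted p = 0.155) with the authors' log2 values. For Dab2 ILMN_1243329, median scaling gave means of 6.42 in EpiSCm and 6.74 in ESCm, against 6.80 in EpiSCf and 6.02 in ESCf. The negative difference of that probe was thus larger than on the quantile-normalized values, and the sign of a Dab2 difference depended on the probe. Sex, mouse background and array family change together here and cannot be told apart: Gata6 gave raw signals of 149 and 113 in EpiSCm, where it was detected, and of 142 and 108 in EpiSCf, where it was not. ESCf and ESCm themselves differed on 1 of 4 probes, Dab2 ILMN_1243329 (log2 -0.61, adjusted p = 0.048), beside 21.5% of all (10.3% higher, 11.2% lower), a call lost without any 1 of the 4 arrays.

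Markers of fibroblasts, the usual feeder cells of such cultures, moved with the ES cell groups. Of 26 such genes with a probe 16 were kept, and 14 were detected on both arrays of ESCm, 11 of ESCf, 7 of P19 EC, 5 of EpiSCf, 5 of EpiSCm and 3 of F9 EC. Their summed level was log2 12.08 to 12.13 in ESCm, 12.53 to 12.63 in ESCf, 10.20 to 10.24 in P19 EC, 9.99 to 10.02 in EpiSCf, 10.32 to 10.46 in EpiSCm and 9.05 to 9.16 in F9 EC. Col1a1 and Col3a1 were detected on no array of F9 EC, P19 EC, EpiSCf or EpiSCm, while Dcn was detected in EpiSCf and P19 EC. Of the 16 genes, 0 rose and 14 fell in F9 EC against ESCm (median log2 -1.42), where 24.7% of all genes rose and 23.8% fell. In P19 EC against ESCm 3 rose and 12 fell (-1.35), beside 29.3% and 27.5% of all genes. In EpiSCf against ESCf 1 rose and 12 fell (-1.26), beside 33% and 27.4%, and in EpiSCm against ESCm 0 rose and 10 fell (-0.92), beside 41.3% and 28.7%. Their part in the member results was not tested. In such bulk RNA, fewer cells of a type and less RNA per cell cannot be told apart.

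In each Sox2-labelled carcinoma line, 1 kept probe was called against the parent line. Each parent had 1 Sox2-labelled group, so Sox2 and other differences between the lines cannot be told apart. In F9-Sox2 against F9 EC, Gata6 was higher by log2 0.69 (SE 0.19, adjusted p = 0.030), beside 7.85% of probes called (4.36% higher, 3.49% lower), but its level in F9-Sox2 lay at the limit of detection and so gives no fold. The call was lost when any 1 of the 4 arrays was left out. Amn was not called (log2 0.61, SE 0.21, adjusted p = 0.085), and both Dab2 probes were undetected in both groups. In P19-Sox2 against P19 EC, Amn was 1.74-fold lower (log2 -0.80, SE 0.21, adjusted p = 0.020), the 1 probe of 4 called beside 8.48% of all (4.71% higher, 3.77% lower). That call was lost without P19 EC replicate 2 (log2 -0.57, adjusted p = 0.25) or P19-Sox2 replicate 1 (-0.62, adjusted p = 0.16). Gata6 (-0.18) and Dab2 (-0.27 and -0.47) were not called there. The change of Amn from parent to Sox2-labelled line differed by log2 -1.42 (P19 minus F9, SE 0.30, adjusted p = 0.0048). In that test 8.09% of probes were called (4.17% above 0, 3.92% below), and Gata6 did not pass (-0.87, adjusted p = 0.053).

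Among the Sox2-labelled GOF18 lines, Dab2 was higher on both probes in the 1 line in EpiSC medium than in the 2 lines in ESC medium. EpiSox2mL2, kept in EpiSC medium, exceeded EpiSCm on Dab2 ILMN_3091641 (2.01-fold, log2 1.01, SE 0.20, adjusted p = 0.0019), Dab2 ILMN_1243329 (1.81-fold, log2 0.86, adjusted p = 0.0078) and Amn (1.53-fold, log2 0.61, adjusted p = 0.043), so 3 of 4 probes were called beside 22% of all probes (11.3% higher, 10.7% lower). Without EpiSCm replicate 1 the Amn value was 0.23 (adjusted p = 0.49) and that of Dab2 ILMN_1243329 0.63 (adjusted p = 0.095). Without EpiSox2mL2 replicate 1 that of Amn was 0.43 (adjusted p = 0.30). With the authors' log2 values, Dab2 ILMN_1243329 (adjusted p = 0.066) and Amn (adjusted p = 0.091) lost their calls. Amn also lost its call with median scaling (adjusted p = 0.0501), without a detection filter (0.068) and in a fit of these groups alone (0.20). Gata6 was not called (-0.20, adjusted p = 0.50). The summed level of the fibroblast genes was log2 11.51 to 11.66 in EpiSox2mL2 and 10.32 to 10.46 in EpiSCm. Their part in these member results was not tested.

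The lines in ESC medium had less Dab2 than EpiSox2mL2. EpiSox2mE1 was 2.76-fold lower on ILMN_1243329 (log2 -1.47, adjusted p = 3.9e-05) and 2.48-fold lower on ILMN_3091641 (log2 -1.31, adjusted p = 8.5e-05), and Amn was 1.49-fold lower (log2 -0.57, adjusted p = 0.049). EpiSox2mE2 was lower by log2 -2.18 on Dab2 ILMN_1243329 (adjusted p = 3.8e-07), where 1 of its 2 arrays detected the probe and its mean lay at the limit of detection, and 2.45-fold lower on ILMN_3091641 (log2 -1.29, adjusted p = 9.5e-05). Amn stood at -0.07 there. These were 3 and 2 of 4 probes, beside 28% of all probes (13.6% higher, 14.4% lower) and 32.2% (15.7% higher, 16.5% lower). The Amn call in EpiSox2mE1 was lost without EpiSox2mL2 replicate 1 (log2 -0.39, adjusted p = 0.32), without EpiSox2mE1 replicate 1 (adjusted p = 0.10) or replicate 2 (0.17), with the authors' log2 values (0.11), without a detection filter (0.078), in a fit of these groups alone (0.067) and with the replicate number as a block (0.052). Gata6 was not called in either (-0.22 and 0.01). Of the 16 fibroblast genes tested, 6 rose and 2 fell in EpiSox2mE1 (median 0.30, beside 14.0% and 17.3% of all genes) and 7 rose and 4 fell in EpiSox2mE2 (median 0.54, beside 15.7% and 19.6%) against EpiSox2mL2, with summed levels of log2 11.18 to 11.50 and 11.38 to 11.44 against 11.51 to 11.66. Their part in the Dab2 result was not tested.

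Against their parent EpiSCm, Dab2 ILMN_1243329 was lower in EpiSox2mE2 (log2 -1.32, adjusted p = 1.6e-04, with 1 of 2 EpiSox2mE2 arrays detected) and in EpiSox2mE1 (1.53-fold, log2 -0.61, adjusted p = 0.040), the 1 probe called in each beside 26.7% of all in both (12.8% higher and 13.9% lower for EpiSox2mE2, 13.1% and 13.6% for EpiSox2mE1). The EpiSox2mE2 value was -0.87 without EpiSox2mE2 replicate 1. The EpiSox2mE1 call was lost without EpiSCm replicate 2 (log2 -0.38, adjusted p = 0.32) or without either EpiSox2mE1 array. Between EpiSox2mE2 and EpiSox2mE1, 0 of 4 probes were called by limma and 2 had an unadjusted p under 0.05, beside 1.84% of all called (0.909% higher, 0.933% lower), and Dab2 ILMN_1243329 stood at -0.71 (adjusted p = 0.11). The EpiSox2mE2 arrays disagreed on this Dab2 probe: the value was -0.26 (adjusted p = 0.60) without replicate 1, which did not detect it, and -1.16 (adjusted p = 0.0031) without replicate 2, which did. In the libraries labelled Epi-Sox2f against EpiSCf limma called 0 of 4, with 0 at an unadjusted p under 0.05, beside 27.2% of all (13.3% higher, 13.9% lower), with values from -0.15 to 0.24. The change of Dab2 ILMN_3091641 from parent to Sox2-labelled line differed between GOF18 and OG2 by 1.13 (SE 0.29, adjusted p = 0.0066). In that test 29.9% of probes were called (15.2% above 0, 14.8% below), and in the OG2 line Sox2 was not called higher. The Dab2 call was lost with the authors' log2 values (1.34, adjusted p = 0.057).

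Other regulators of endoderm were measured beside Gata6. Sox7, a transcription factor of parietal endoderm, was highest in F9 EC, at log2 9.55 ± 0.11 (SD, n = 2) against 5.41 ± 0.28 in ESCm (log2 4.14, adjusted p = 8.3e-12), and fell to 8.09 ± 0.11 in F9-Sox2 (log2 -1.46, adjusted p = 4.7e-05). Of 9 tested transcription factors on this list, 5 rose and 2 fell in F9 EC against ESCm (median log2 0.47, against 0.02 over all 8932 genes, of which 24.7% rose and 23.8% fell, the shares for every list in this comparison). Otx2 (log2 1.14), Eomes (0.79) and Klf6 (0.73) were the next largest. Sox17 passed on both arrays of EpiSCm alone (5.60 ± 0.22), and Foxa1 and Hnf4a were kept in no group. Foxa2, a pioneer factor of endoderm, was detected on both arrays only of EpiSox2mE1 (6.89 ± 0.03) and EpiSox2mE2 (7.32 ± 0.12), at least 3.15-fold and 4.25-fold above EpiSox2mL2.

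Genes listed for parietal endoderm and basement membrane split within F9 EC. Of 18 tested, 3 rose and 7 fell against ESCm (median log2 -0.26). Serpinh1, the collagen chaperone, rose by log2 2.79 (6.91-fold, adjusted p = 2.4e-09) and Lama1 by 1.31 (9.17 ± 0.22 against 7.86 ± 0.03), whereas Lamb1 was at least 3.97-fold lower. In EpiSCf against ESCf 1 rose and 13 fell (median -0.74, against 0.07 over all genes, of which 33% rose and 27.4% fell), among them Nid1, at least 6.03-fold lower, and Lama1, at least 3.10-fold lower. In EpiSox2mE2 against EpiSox2mL2 2 rose and 10 fell (median -0.61, against -0.01 over all genes, of which 15.7% rose and 19.6% fell). The BMP and activin antagonist Fst rose 10.9-fold and Snai1 rose by log2 2.82, with 1 of 2 EpiSox2mL2 arrays detected, while Col4a2, a chain of basement membrane collagen, fell 5.26-fold and the proteoglycan Hspg2 3.63-fold.

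Of 29 visceral endoderm genes for transport and secretion with a probe, 13 were tested, and Lrp2, Apoa1, Rbp4 and Alb were not kept. In F9 EC against ESCm 2 rose and 7 fell (median -0.50), beside 24.7% and 23.8% of all genes, among them Apoa2, an apolipoprotein, at least 7.06-fold lower, and Dpp4, lower by log2 -2.53 with 1 of 2 F9 EC arrays detected. In EpiSCf against ESCf 3 rose and 8 fell (median -0.88), beside 33% and 27.4% of all genes, and Rhox5 was at least 122-fold and Dpp4 at least 7.43-fold lower. In EpiSox2mL2 against EpiSCm 6 rose and 1 fell (median 0.45, against -0.01 over all genes, of which 12.9% rose and 11.5% fell). Of 14 endocytosis partners of Dab2, Amn and Cubn, 4 rose and 2 fell in F9 EC against ESCm (median 0.14), shares near those of all genes (24.7% and 23.8%). Vldlr, a lipoprotein receptor that binds Dab proteins, was 8.81 ± 0.09 in F9 EC against 5.64 ± 0.06 in ESCm, and Lrpap1 was lower by log2 -1.23 there and by -2.44 in EpiSCf against ESCf.

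**Figure D4:**
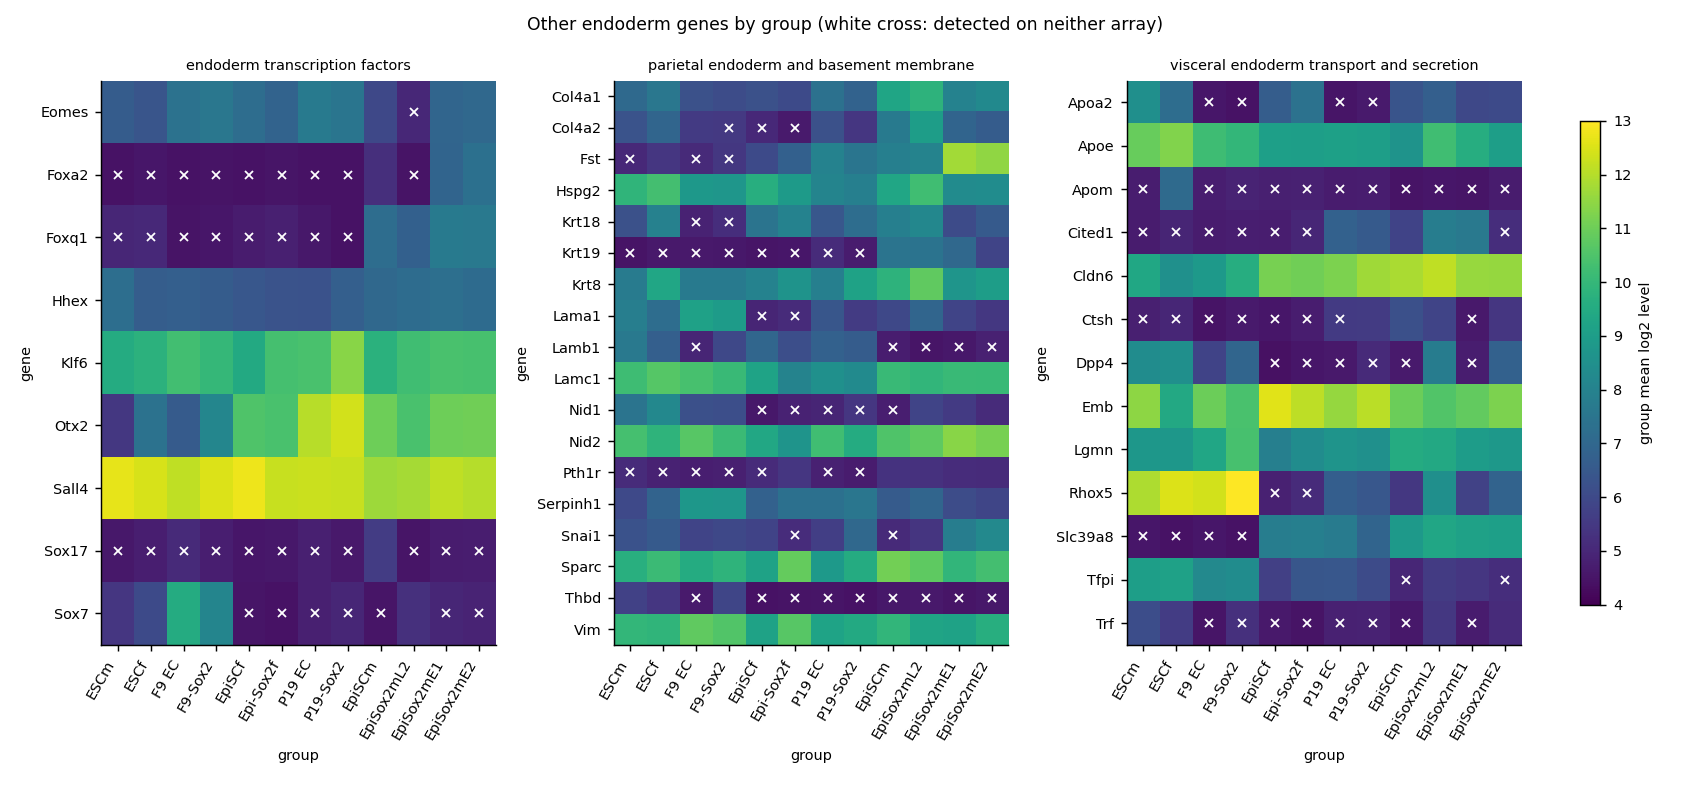
Group mean log2 level (colour, 2 arrays per group) of tested genes from 3 endoderm lists, with a white cross where neither array detected the gene. Sox7 and Lama1 are brightest in the F9 lines, and Foxa2 is detected on both arrays in EpiSox2mE1 and EpiSox2mE2.

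Definitive endoderm and mesendoderm genes, which share factors with the visceral layer, were lower in EpiSox2mL2 than in the other GOF18 lines. Of 13 tested, 0 rose and 8 fell in EpiSox2mL2 against EpiSCm (median -0.81), beside 12.9% and 11.5% of all genes, with Fgf8 down by log2 -3.56 and Gsc at least 8.92-fold lower. Against EpiSox2mL2, 10 rose and 0 fell in EpiSox2mE1 (median 1.76, against 0.00 over all genes, of which 14.0% rose and 17.3% fell) and 10 rose and 0 fell in EpiSox2mE2 (median 2.02, beside 15.7% and 19.6% of all genes). Of 15 FGF and PDGF pathway genes, 4 rose and 8 fell in EpiSCf against ESCf (median -0.40), beside 33% and 27.4% of all genes, among them Fgf4, the ligand that drives primitive endoderm, at least 9.25-fold lower, and Pdgfa, a ligand of Pdgfra, lower by log2 -3.26. Of 14 retinoid response genes, 1 rose and 4 fell in F9 EC against ESCm (median -0.38), where 24.7% of all genes rose and 23.8% fell, with Stra8 at least 4.82-fold lower. Of 6 anterior visceral endoderm genes 1 rose and 2 fell there (median -0.30), and of 9 trophoblast genes 1 rose and 6 fell (median -0.77).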

How the data were processed

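Gene expression was measured on 24 arrays from 300 ng of RNA each. The authors deposited a table of non-normalized intensity values per probe with a detection p-value for each, and a processed table of log2 values. BeadStudio 3.2, lumi and RMA appear in the submitters' processing notes, with no order or role given. From the intensities, limma 3.58.1 in R 4.3.3 removed background (normexp inferred from detection p-values, offset 16), quantile-normalized and took log2. Of 25697 probes, 23978 carried 1 gene symbol, 1719 none and 0 several, and 23962 matched RefSeq by Entrez identifier. Probes that both arrays of some group detected (p under 0.01) were kept.

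One mean per group was fitted over all arrays (12 residual, 6.43 prior degrees of freedom), with moderated tests, Benjamini-Hochberg adjustment over the 12324 kept named probes and calls at 0.05, for 15 comparisons and 3 differences of effects. Where a probe was undetected on every array of the lower group, a fold is "at least" the brighter mean over the limit of detection, the lowest signal of a detected probe. Gene lists used 1 probe per gene, the kept one of highest mean. Members and lists were chosen with earlier results of these data known. Named were all member probes, up to 4 called genes of largest change per list and comparison, and the 3 genes most alike in pattern to each member. Fibroblast genes and the genes named as not kept were picked after their values were seen.

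The fit was also run on simulated data with known changes in few probes and independent normal noise. In most comparisons of the real data far more probes were called, and the outcome of that run is not given here. Replicate arrays correlated at 0.984 to 0.994, and the values used at 0.990 with the authors' log2 values. Deviations of same-numbered replicates correlated at -0.17 to 0.067, over 0.1 in 0 of 15 comparisons, so the main fit did not pair arrays by replicate number. The lowest values (-0.17, -0.15 and -0.13) all involved EpiSox2mE2. With 2 arrays per group this check cannot exclude a pairing. The files give no slide, so no slide block was fitted.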

Additional observations from a re-analysis of the deposited data

Results flagged for a closer look

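In 5 results an effect differed between lines by a test of the difference itself (limma, adjusted over all kept probes). The change of Amn from parent to Sox2-labelled line differed by log2 -1.42 between P19 and F9 cells (-0.80 against 0.61, adjusted p = 0.0048), where 1 of 2 F9 EC arrays detected Amn. The change from ESC to EpiSC, male minus female, differed by 1.64 for Gata6 (0.24 against -1.40, adjusted p = 6.3e-05), by 1.67 for Amn (-0.79 against -2.46, adjusted p = 1.3e-04) and by 0.81 for Dab2 ILMN_3091641 (1.24 against 0.43, adjusted p = 0.027). Neither EpiSCf array detected Gata6 or Amn, so these sizes depend on the background offset: 3.19 and 2.98 with the authors' log2 values, 0.94 and 0.99 with an offset of 50. The Dab2 difference was not called without ESCm replicate 2, ESCf replicate 2 (0.58), EpiSCf replicate 1 or EpiSCm replicate 1, nor with median scaling (0.21). It also lost its call with the authors' log2 values (0.88, adjusted p = 0.155). The change of Dab2 ILMN_3091641 from parent to Sox2-labelled line differed by 1.13 between GOF18 and OG2 EpiSC lines (1.01 against -0.12, adjusted p = 0.0066). That call was lost with the authors' log2 values (1.34, adjusted p = 0.057). For the last 4, mouse background, sex and array family cannot be told apart. Each of the 5 results compares 2 effects, and each of the 4 groups behind it holds 2 arrays.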

How the results depend on the processing

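Of 966 recomputed member changes over all alternatives, 0 reversed direction among called values, 58 lost their call and 15 gained one. Of 4 kept probes, calls in F9 EC against ESCm and P19 EC against F9 EC stayed at 4 without any 1 array. With the authors' log2 values, called probes numbered 2 in P19 EC against ESCm, 0 in ESCf against ESCm, 1 in EpiSox2mL2 and 0 in EpiSox2mE1 against EpiSCm, and 0 for the difference between GOF18 and OG2. Median scaling gave 2 in ESCf against ESCm, 2 in F9-Sox2 against F9 EC and 2 for the difference between P19 and F9, with 2295 of all probes called in EpiSox2mE1 against EpiSox2mL2 and 133 in EpiSox2mE2 against EpiSox2mE1. An offset of 50 gave 0 in F9-Sox2. Without a detection filter, ESCf against ESCm and EpiSox2mE1 against EpiSCm had 0. With 1 probe per gene, EpiSCm against ESCm had 1, EpiSox2mE2 against EpiSox2mL2 1, the P19 and F9 difference 2 and the GOF18 and OG2 difference 0.

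Fitting only the groups compared (in parentheses, also normalized alone) gave 2 (2) member probes in F9-Sox2, 0 (0) in P19-Sox2, 0 (0) in EpiSox2mE1 against EpiSCm and 2 (2) for the P19 and F9 difference. All probes called were then 546 (485) of the 1045 in P19-Sox2, 928 (1259) of 2712 in EpiSox2mL2, 1698 (1874) of 3292 in EpiSox2mE1 and 1087 (1231) of 3285 in EpiSox2mE2 against EpiSCm, 2024 (2484) of 3972 in EpiSox2mE2 against EpiSox2mL2, and 11 (12) of 227 in EpiSox2mE2 against EpiSox2mE1. Fewer arrays inform the spread in these fits.

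Leaving out 1 array in turn gave 1 to 2 member probes in EpiSCm against ESCm, 0 to 1 in EpiSox2mE1, 1 to 2 in EpiSox2mE2 and 1 to 3 in EpiSox2mL2 against EpiSCm, 0 to 1 in EpiSox2mE2 against EpiSox2mE1, ESCf against ESCm and P19-Sox2, 0 to 0 in F9-Sox2, 2 to 3 in P19 EC against ESCm, and 1 to 2 for the GOF18 and OG2 difference. All probes called ranged from 1899 to 2298 in Epi-Sox2f, 101 to 278 in EpiSox2mE2 against EpiSox2mE1, 1394 to 2077 in EpiSox2mL2 against EpiSCm, 1551 to 1758 in ESCf against ESCm, 498 to 556 in F9-Sox2 and 547 to 807 in P19-Sox2. A lone array was assumed to vary like the other groups. With the replicate number as a block, 1 call was lost, Amn in EpiSox2mE1 against EpiSox2mL2 (log2 -0.57, adjusted p = 0.052), and no other.

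Median scaling moved the median of all probes from 0.14 to -0.20 in EpiSCm against ESCm (share of calls that were higher 57.2% to 37.1%), from 0.06 to 0.22 in EpiSCf against ESCf (53.5% to 64.8%) and from -0.04 to -0.14 in ESCf against ESCm (48% to 33.2%). In EpiSox2mE2 it reached -0.22 against EpiSCm (47.9% to 13.6%), -0.12 against EpiSox2mL2 (48.8% to 18.6%) and -0.17 against EpiSox2mE1 (49.3% to 13.5%). The higher share also fell in F9-Sox2 (55.5% to 40.8%), P19-Sox2 (55.5% to 39.2%), EpiSox2mL2 (51.5% to 39.1%) and EpiSox2mE1 against EpiSCm (48.9% to 35.5%). In some groups the member probes were undetected or near the limit of detection, which limits the fold changes there. The cause of lost calls was not tested.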
